A study of Mus musculus with 6 samples.

Results

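The genes described here encode myosins, tropomyosins and regulators of actin filaments. They were chosen by symbol alone: each gene of the deposited count table whose symbol begins with Myh, Myl, Myo, Tpm, Tnnc, Tnni, Tnnt, Tmod, Actn, Cnn or Pdlim followed by a digit, leaving out Myh11, Myh3 and Cnn1 and symbols that begin with Mylk or Mylip. The rule used no measured value and gave 76 of the 23478 genes in the table, though the members were chosen with earlier results of these data known. RNA had been sequenced from mouse tracheal cells at embryonic day 13.5, sorted after 15 minutes of TrypLE digestion into muscle (GFP-positive, 3 libraries) and epithelium (stained with an antibody to Epcam, 3 libraries). All 6 libraries share 1 genotype, Bmp4 f/f (floxed Bmp4) with the gamma SMA eGFP reporter, and all are titled as controls. The muscle gate therefore rests on a fluorescent reporter named for gamma smooth muscle actin, and it takes whichever cells carry that signal. The labels do not say whether the libraries came from separate embryos or from pools, so p-values measure only the spread between these samples, which may be technical.

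Contraction of smooth muscle and tension in nonmuscle cells both come from myosin II, a motor built of heavy chains that each carry a regulatory and an essential light chain. Myosin light chain kinase switches the motor on by phosphorylating the regulatory light chain. Tropomyosins run along the actin filament, where striated muscle adds the calcium-sensing troponin complex and smooth muscle uses calponin and caldesmon. Alpha-actinins crosslink actin filaments, PDZ-LIM proteins bind alpha-actinin and actin bundles, tropomodulins cap the slow-growing filament ends, and the unconventional myosins move cargo or tether membranes to actin.

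Library totals ran from 11847432 to 54848820 counts. The 76 genes together took 1.04% to 1.51% of the counts of a muscle library and 0.573% to 0.617% of those of an epithelial library. Levels below are in CPM, the counts of a gene relative to its library's total, after TMM scaling (trimmed mean of M-values) between libraries. The sorted populations carried the markers of their labels. The 10 smooth muscle markers summed to 16896, 4137 and 17829 CPM in muscle replicates 1, 2 and 3 and to between 122 and 154 CPM in epithelium, and the 12 epithelial markers summed to between 3742 and 5010 CPM in epithelium and between 14.8 and 33.9 CPM in muscle. The 8 fibroblast and mesenchyme markers, for which the labels name no step of removal, summed to between 7961 and 10709 CPM in muscle and to 362, 2177 and 271 CPM in epithelial replicates 1, 2 and 3. The 8 cartilage markers summed to between 662 and 1143 CPM in muscle and between 244 and 502 CPM in epithelium (Sox9 and Col9a1 called), and the 7 endothelial markers to between 68.1 and 86.9 CPM and between 2.03 and 57.6 CPM (Esam called). The part of such cells in the differences below was not tested. In bulk libraries such as these, fewer cells of a type and less RNA per cell cannot be told apart.

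The smooth muscle light chain Myl9 and the tropomyosin Tpm2 had the largest differences towards muscle, while the nonmuscle heavy chain Myh14, the transport motor Myo5c and the adaptor Pdlim1 were the only members found higher in epithelium. Of the 75 members tested, 20 (26.7%) were higher in muscle by edgeR's quasi-likelihood test (Benjamini-Hochberg adjusted p below 0.05), against 6.58% of the 19375 genes tested in all. In epithelium 3 members (4.0%) were higher, against 4.11% of all genes, a share near the background. The 3 muscle libraries all lay above the 3 epithelial libraries for 29 members (38.7%, against 16.4% of all tested genes), all below for 7 (9.33%, against 10.5%), and overlapped for 39. The median log2 fold change of muscle over epithelium was 0.04 over the members and -0.10 over all tested genes. The 2 medians were 0.76 and 0.07 with limma-voom, 0.80 and -0.02 with a filter of at least 10 counts, 0.89 and 0.11 with a covariate for receptor background (counts of olfactory and vomeronasal receptor genes) and 0.59 and 0.04 without epithelial replicate 2, so the distance between them depended on the processing. Scaling by library size alone shifted the median of all genes to -0.33. The remaining gene, the regulatory light chain Myl10, was too low to test, at 0.60 CPM or less in each library.

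Every called member reached 20 CPM in at least 1 library, a level that a gene can reach in 1 population alone. Tnnt1 did so only in muscle replicate 1 (40.8 CPM). The 32 tested members under 20 CPM in every library gave 0 calls in edgeR, with 3 (Myh7, Myl1 and, named after its values were seen, Myo16) at an unadjusted p under 0.05 and 2 (Myh7 and Myl1) called by DESeq2. The 43 members at 20 CPM or more in at least 1 library gave all 23 calls. Other alternatives called up to 5 of the faint members, the most with a covariate for receptor background (Myh7, Myl1, Myo16, Tmod1 and Tnnt3). Among the others, limma-voom called Myo16 and Myo5b, and the fit without muscle replicate 2 called Myo16 and Myo15. Myo16 was also called in both fits on the header date and with the replicate block. Among all genes at 20 CPM or more in at least 1 library, 1226 of 10114 were higher in muscle and 728 higher in epithelium. Over all 19375 tested genes these counts were 1274 and 797, so calls among faint genes were rare in the whole table. The 0 calls among the 32 faint members are therefore not particular to them. Without epithelial replicate 3 the count of members higher in muscle dropped to 11, and it was between 14 and 21 without any other library. Without muscle replicate 2, 5 members were higher in epithelium.

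**Figure D1:**
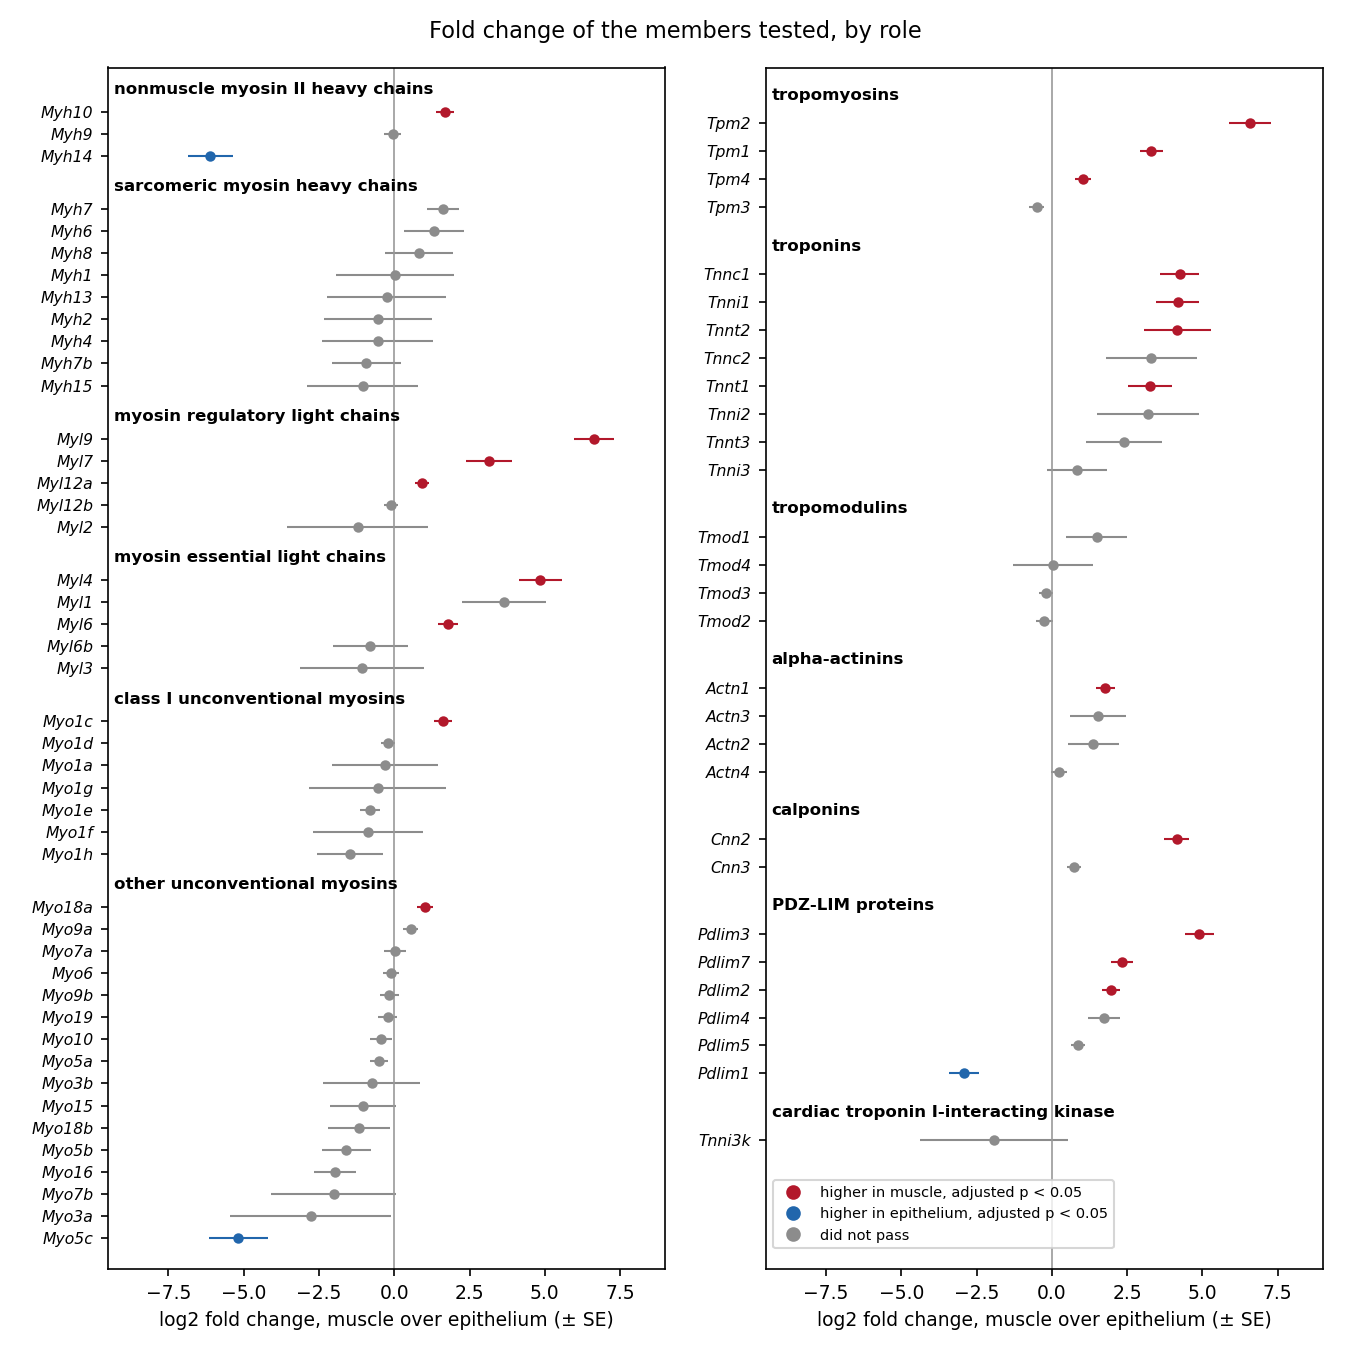
Log2 fold change of muscle over epithelium for the members tested, leaving out 1 that is not reported here, grouped by the role of the protein, with bars of 1 standard error from edgeR; red and blue points passed an adjusted p of 0.05 and grey points did not. The tropomyosins, troponins and PDZ-LIM proteins have most of their members to the right of 0, while the unconventional myosins lie mostly to the left with wide bars.

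The promoters of the muscle members were read for the CArG box, the element that serum response factor binds in many contractile genes, and for the MCAT element (CATTCC or, on the other strand, GGAATG), which Tead factors bind. RefSeq promoters (GRCm38.p6, 250 bases before to 50 after a gene's start) were found for 66 of the 76 members. A CArG box stood in 8 of these 66 (12.1%), against 488 of 27025 genes in all (1.81%): in Cnn2, Myl6, Myl7 and Myl9 among the 19 muscle members with a promoter, and in Myh4, Myh13, Myl3 and Myo1e among the 43 that were not called. The Myh13 match began 22 bases after the RefSeq start, and the Myl6 box lay within an annotated Myl6 exon. The 3 members higher in epithelium had neither motif. An MCAT element stood in 21 of the 66 (31.8%), in 7 of the 19 muscle members and in 16.6% of all genes, and in no member promoter did it overlap a CArG box. These are matches of letters and not measured sites. Windows of 70 bases around the CArG box (in capitals, with 30 bases on each side) are shown for the 3 muscle members in which it lies upstream of the gene, outside any annotated exon, since they include the member with the largest fold change, Myl9, and the member with the largest calponin change, Cnn2. Distances are counted from the RefSeq start, which for Myl9 and Cnn2 differs from the start in the gene coordinates given below. The Myl9 window is chr2:156775273-156775342 on the plus strand, with the box starting 161 bases before the RefSeq start. The Cnn2 window is chr10:79988514-79988583 on the plus strand, with the box at 56 bases, and the Myl7 window is chr11:5898804-5898873 on the minus strand, with the box at 61 bases.
Myl9: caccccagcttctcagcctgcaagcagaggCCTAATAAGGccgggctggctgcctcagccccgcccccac
Cnn2: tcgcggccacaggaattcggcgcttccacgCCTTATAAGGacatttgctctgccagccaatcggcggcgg
Myl7: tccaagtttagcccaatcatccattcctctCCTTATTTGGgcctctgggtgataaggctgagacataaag

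The 3 nonmuscle myosin II heavy chains split 3 ways: Myh10 (myosin IIB) was higher in muscle, Myh14 (myosin IIC) was higher in epithelium, and Myh9 (myosin IIA) did not pass the test. Myh10, on chromosome 11 (68691559 to 68816632, plus strand, GRCm38), was at 963, 554 and 938 CPM in muscle replicates 1, 2 and 3 and at 329, 212 and 222 CPM in epithelial replicates 1, 2 and 3. The groups did not overlap, and the log2 fold change of Myh10 was 1.68 ± 0.31 (SE; edgeR adjusted p = 0.00903). Without epithelial replicate 3 its edgeR adjusted p was 0.0602. Myh14, on chromosome 7 (44605803 to 44670843, minus strand), was at 0.61, 6.19 and 3.82 CPM in muscle against 168, 289 and 272 CPM in epithelium. The fold change on the log2 scale was -6.11 ± 0.74 (SE; edgeR adjusted p = 0.00132), the largest difference towards epithelium among the members. Myh9 ranged from 97.9 to 145 CPM in muscle and from 99.6 to 176 CPM in epithelium, and its log2 fold change of -0.05 ± 0.29 (SE; edgeR adjusted p = 0.967) changed sign without muscle replicate 2 (0.10) and without epithelial replicate 1 (0.26). Taken per kilobase of transcript, Myh10 made up 85.5% ± 2.0 (SD, n = 3) of the counts of the 3 genes in muscle and 36.9% ± 7.8 in epithelium. Myh14 made up 0.54% ± 0.54 of them in muscle and 43.5% ± 13.1 in epithelium.

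Among the myosin regulatory light chains, Myl9, Myl7 and Myl12a were higher in muscle and Myl12b and Myl2 were not called. Myl9, the regulatory chain of smooth muscle myosin, lies on chromosome 2 (156775420 to 156781658, plus strand). It was at 5111, 1493 and 5811 CPM in muscle replicates 1, 2 and 3 and at 44.9, 59.0 and 21.9 CPM in epithelial replicates 1, 2 and 3. Muscle replicate 2 was the lowest muscle library and still far above every epithelial library, and the log2 fold change of 6.62 ± 0.66 (SE; edgeR adjusted p = 0.000585) was the largest among the members. Myl12a, a regulatory chain that nonmuscle cells use widely, was at 537, 512 and 617 CPM in muscle and at 329, 279 and 270 CPM in epithelium. The Myl12a groups were separate but close, with a log2 fold change of 0.92 ± 0.23 (SE; edgeR adjusted p = 0.0325). Its near copy Myl12b lay between 216 and 248 CPM in muscle and between 207 and 264 CPM in epithelium, which gave a log2 fold change of -0.10 ± 0.23 (SE). Of the 50-base words of the Myl12a transcript, 29.2% also occur in that of Myl12b, so counts could be split between this pair.

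Per kilobase, Myl9 supplied 85.8% ± 10.2 (SD, n = 3) of the regulatory light chain counts in muscle and 11.9% ± 5.1 in epithelium, where Myl12a supplied 48.7% ± 2.3 and Myl12b 36.8% ± 5.8. Myl7, the regulatory chain of the heart's atria, was at 20.5, 58.3 and 19.3 CPM in muscle and at 0.99, 7.69 and 2.59 CPM in epithelium. It was highest in muscle replicate 2, the library in which Myl9 was lowest, and its log2 fold change was 3.15 ± 0.76 (SE; edgeR adjusted p = 0.0298). The Myl7 call did not hold without muscle replicate 1, 2 or 3 or epithelial replicate 3 (edgeR adjusted p = 0.0657, 0.0574, 0.0529 and 0.167), nor with scaling by relative log expression (0.0621), upper quartile (0.0830) or library size alone (0.0967). That of Myl12a held without muscle replicate 2 and was lost without each of the other 5 libraries, with edgeR adjusted p from 0.0667 (without epithelial replicate 2) through 0.0882 (epithelial 1), 0.117 (muscle 1) and 0.161 (muscle 3) to 0.232 (epithelial 3).

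The essential light chains Myl6 and Myl4 were higher in muscle. Myl6, the essential chain of smooth muscle and nonmuscle myosin, was at 475, 255 and 552 CPM in muscle replicates 1, 2 and 3 and at 151, 117 and 105 CPM in epithelial replicates 1, 2 and 3. All muscle libraries exceeded all epithelial ones, with a log2 fold change of 1.78 ± 0.33 (SE; edgeR adjusted p = 0.00897), or an edgeR adjusted p of 0.0535 without epithelial replicate 3. Myl4, the essential chain of atrial and embryonic striated muscle, was at 56.5, 21.4 and 69.2 CPM in muscle and at 0.46, 2.74 and 2.10 CPM in epithelium. The log2 fold change of Myl4 was larger, 4.85 ± 0.70 (SE; edgeR adjusted p = 0.00289), from a far lower level. Per kilobase Myl6 still supplied 91.8% ± 1.4 (SD, n = 3) of the essential light chain counts in muscle and Myl4 7.06% ± 1.37, against 96.9% ± 2.1 and 1.05% ± 0.73 in epithelium.

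**Figure D2:**
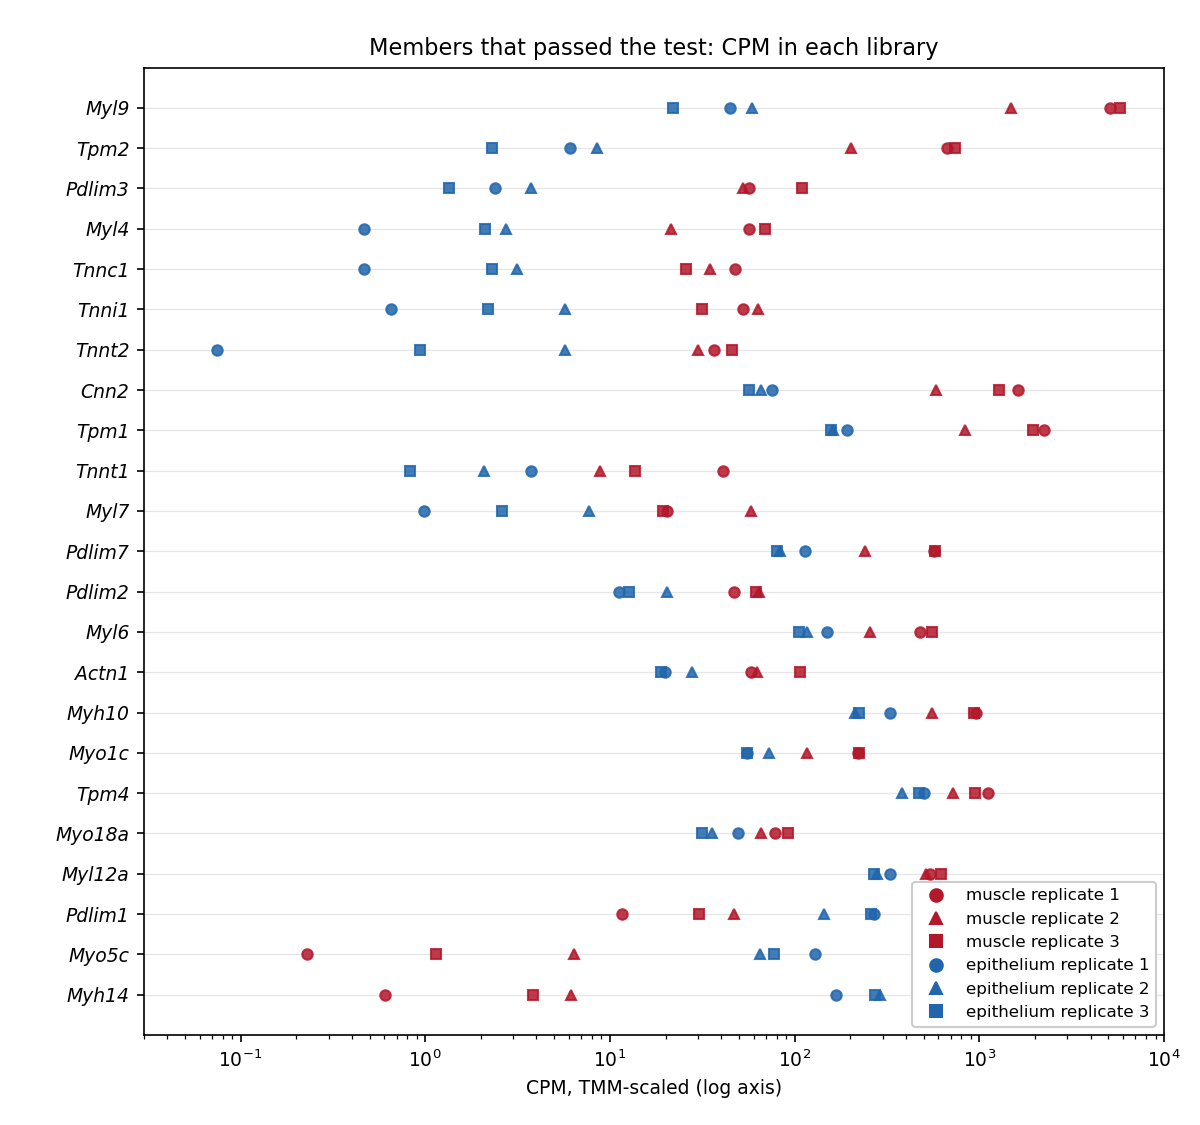
CPM (TMM-scaled, log axis) in each of the 6 libraries for the 23 members that passed the test, ordered by fold change, with muscle in red, epithelium in blue and the replicate number as the marker shape. The red and blue points are apart for each gene, and the red triangle of muscle replicate 2 is the leftmost muscle point for 15 of the 20 genes higher in muscle.

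Tpm1, Tpm2 and Tpm4 were higher in muscle and Tpm3 was not called. Tpm2, the beta-tropomyosin of muscle, lies on chromosome 4 (43514711 to 43523765, minus strand) and was at 670, 202 and 735 CPM in muscle replicates 1, 2 and 3 and at 6.08, 8.55 and 2.29 CPM in epithelial replicates 1, 2 and 3. Its fold change (log2) was 6.58 ± 0.69 (SE; edgeR adjusted p = 0.000747), close to that of Myl9. Tpm1, the alpha-tropomyosin that gives muscle and nonmuscle forms by alternative splicing, was at 2234, 838 and 1954 CPM in muscle and at 192, 160 and 157 CPM in epithelium. The Tpm1 log2 fold change was 3.30 ± 0.39 (SE; edgeR adjusted p = 0.00113), and gene counts do not tell its splice forms apart. Tpm4, mainly a cytoskeletal tropomyosin, was at 1114, 725 and 943 CPM in muscle and at 504, 379 and 471 CPM in epithelium. The difference in Tpm4 was smaller, at 1.04 ± 0.26 (SE, log2; edgeR adjusted p = 0.0348), and it lost its call without any library other than muscle replicate 2 (edgeR adjusted p = 0.170 without muscle replicate 1, 0.120 without muscle replicate 3, and 0.0816, 0.0626 and 0.168 without epithelial replicates 1, 2 and 3).

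Tpm3 was the tropomyosin whose muscle libraries all lay below the epithelial ones, at 416, 360 and 418 CPM against 593, 443 and 654 CPM, but its log2 fold change of -0.50 ± 0.24 (SE; edgeR adjusted p = 0.292) did not pass. It passed in 5 of 18 alternatives, among them DESeq2 and scaling by upper quartile or library size. Of its 50-base words, 62.4% also occur in Tpm3-rs7, so its count is uncertain. Per kilobase, Tpm1 held 49.0% ± 5.8 (SD, n = 3) and Tpm2 13.7% ± 4.1 of the tropomyosin counts in muscle, against 16.2% ± 2.2 and 0.51% ± 0.35 in epithelium. There Tpm3 held 45.1% ± 3.4 and Tpm4 38.1% ± 1.0, against 11.1% ± 3.8 and 26.2% ± 5.8 in muscle.

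Of the calponins, Cnn2 was higher in muscle and Cnn3 was not called. Cnn2, a calponin of smooth muscle and nonmuscle cells on chromosome 10 (79988584 to 79996062, plus strand), was at 1625, 583 and 1280 CPM in muscle replicates 1, 2 and 3 and at 75.2, 65.6 and 56.6 CPM in epithelial replicates 1, 2 and 3. Its fold change (log2) was 4.14 ± 0.41 (SE; edgeR adjusted p = 0.000585). Cnn3, the acidic calponin, was at 1368, 1032 and 1253 CPM in muscle and at 773, 685 and 714 CPM in epithelium. The Cnn3 groups were separate and its log2 fold change of 0.75 ± 0.23 (SE; edgeR adjusted p = 0.0793) missed the threshold, which it passed in 10 of 18 alternatives, among them DESeq2, each of the 3 other scalings and the fit without muscle replicate 2 (edgeR adjusted p = 0.0410). In levels per kilobase Cnn3 was the highest member in epithelium, at 353 CPM per kb, and the fourth in muscle, at 594 CPM per kb, after Myl9 (3668), Tpm1 (883) and Myl6 (643 CPM per kb).

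Of the 4 alpha-actinins only Actn1 passed the test, higher in muscle (25%, against 6.58% of all tested genes). Actn1, the alpha-actinin of focal adhesions and dense bodies, was at 58.2, 62.7 and 107 CPM in muscle and at 19.8, 27.7 and 19.0 CPM in epithelium, which gave a log2 fold change of 1.78 ± 0.31 (SE; edgeR adjusted p = 0.00667). Actn4, the other nonmuscle alpha-actinin, was the more abundant in both populations, at 548 to 877 CPM in muscle and 508 to 682 CPM in epithelium. Those ranges overlapped, and the Actn4 log2 fold change of 0.23 ± 0.27 (SE; edgeR adjusted p = 0.816) changed sign under library size scaling (-0.04). Per kilobase Actn4 held 87.4% ± 0.6 (SD, n = 3) of the alpha-actinin counts in muscle and 94.8% ± 2.6 in epithelium, and Actn1 9.44% ± 2.22 and 3.64% ± 1.35.

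The 6 PDZ-LIM genes gave calls in both directions. Pdlim3, an alpha-actinin-binding protein of muscle Z-discs, was at 56.6, 52.7 and 110 CPM in muscle replicates 1, 2 and 3 and at 2.38, 3.74 and 1.35 CPM in epithelial replicates 1, 2 and 3. Its fold change (log2) was 4.90 ± 0.48 (SE; edgeR adjusted p = 0.000527). Pdlim7 (Enigma) was at 571, 241 and 576 CPM in muscle and at 114, 82.9 and 80.3 CPM in epithelium, a log2 fold change of 2.32 ± 0.37 (SE; edgeR adjusted p = 0.00454). Pdlim2 (Mystique) was at 46.8, 64.5 and 61.8 CPM in muscle and at 11.2, 20.3 and 12.7 CPM in epithelium. Unlike most of the muscle members it was not low in muscle replicate 2, and its log2 fold change was 1.98 ± 0.30 (SE; edgeR adjusted p = 0.00342).

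Pdlim1 (CLP36), on chromosome 19 (40221173 to 40271842, minus strand), went the other way, at 11.6, 46.9 and 30.3 CPM in muscle against 270, 145 and 258 CPM in epithelium. The log2 fold change of Pdlim1 was -2.92 ± 0.50 (SE; edgeR adjusted p = 0.00616). Of its 50-base words 19.8% also occur in Gm5864. Pdlim4 and Pdlim5 did not pass, with log2 fold changes of 1.72 ± 0.53 and 0.87 ± 0.24 (SE; edgeR adjusted p = 0.0747 and 0.0519), although the Pdlim5 groups were separate. Pdlim4 passed in 4 of 18 alternatives, among them without muscle replicate 2 (edgeR adjusted p = 0.00707), and Pdlim5 in 5. Per kilobase Pdlim7 held 60.6% ± 7.3 (SD, n = 3) of the PDZ-LIM counts in muscle and 30.7% ± 3.4 in epithelium, while Pdlim1 held 3.27% ± 3.06 in muscle and 48.5% ± 9.3 in epithelium.

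**Figure D3:**
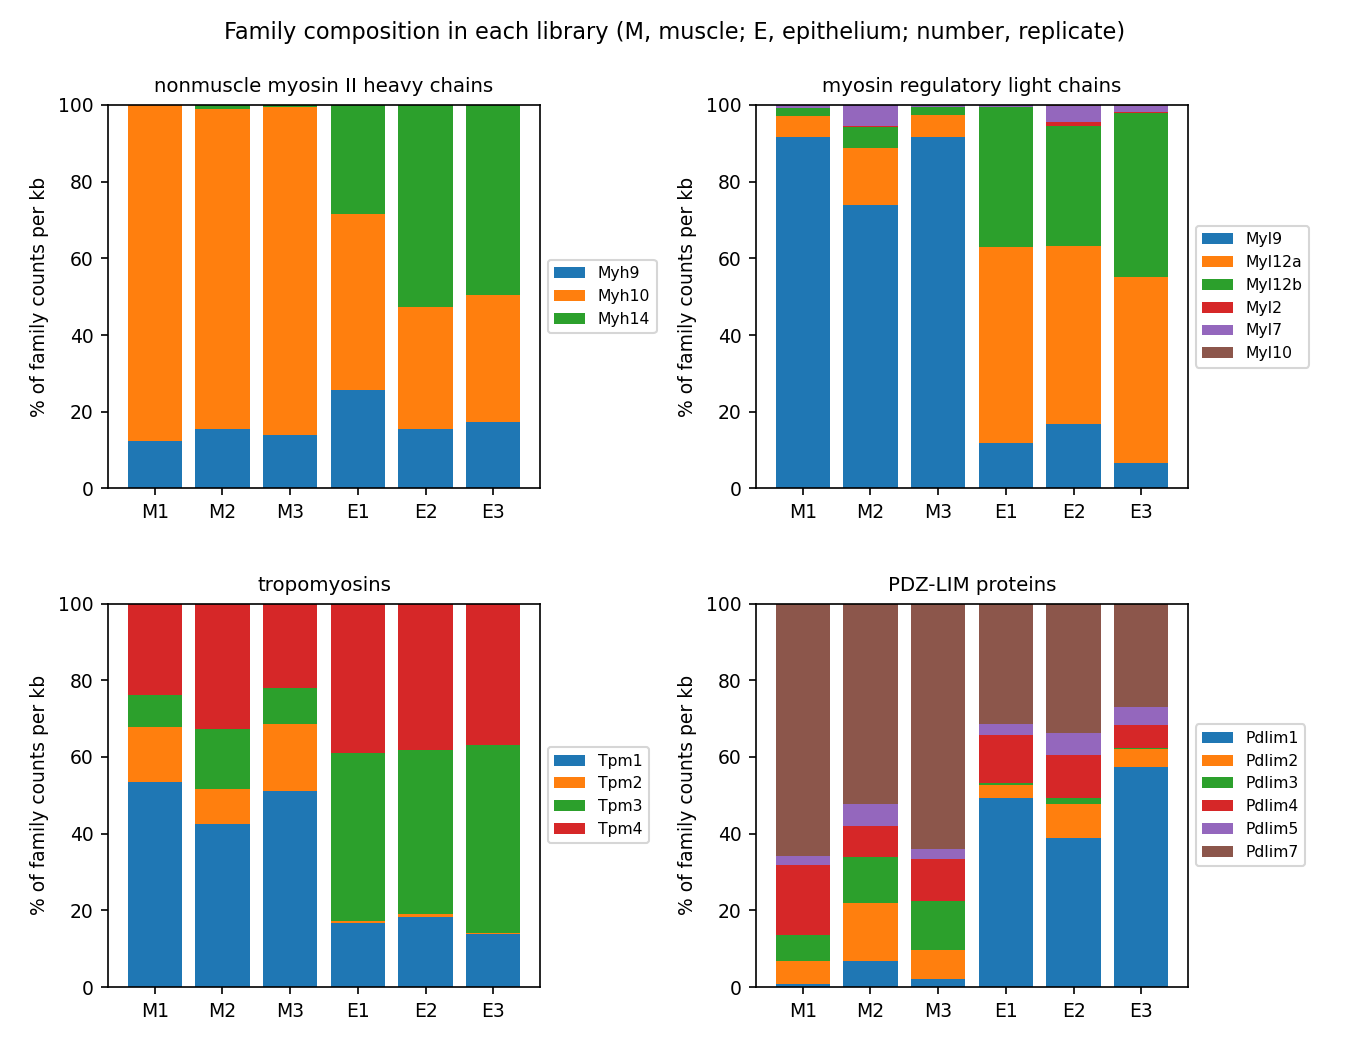
Share of each gene in the length-scaled counts (% of family counts per kb) of 4 families in every library, with M for muscle, E for epithelium and the number for the replicate. Myh10, Myl9, Tpm1 and Pdlim7 fill the largest part of the muscle bars, and Myh14, Myl12a with Myl12b, Tpm3 with Tpm4, and Pdlim1 take up much of the epithelial bars.

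The ratio of 2 related genes within a library needs no scaling between libraries, and 5 such pairs were compared. The log2 ratio of Myl9 to Myl12a averaged 2.68 ± 0.98 (SD, n = 3) in muscle and -2.91 ± 0.69 in epithelium. That of Tpm2 to Tpm4 averaged -0.98 ± 0.77 in muscle and -6.50 ± 1.11 in epithelium, and that of Cnn2 to Cnn3 -0.18 ± 0.57 and -3.47 ± 0.16. The differences for Myh10 to Myh9 and for Actn1 to Actn4 were smaller, 1.70 and 1.52 on the log2 scale. For each of the 5 pairs every muscle library had a higher ratio than every epithelial library, and the exact two-sided permutation p was 0.10 (adjusted over the 5 pairs, 0.10), the smallest that 3 libraries against 3 allow. The first gene of each pair was itself called higher in muscle, and the genes come from lists chosen with earlier results of these data known. The order of the ratios is therefore not separate support for the calls.

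Troponins belong to striated muscle, and 4 of the 8 troponin genes (50%, against 6.58% of all tested genes) were higher in muscle: Tnnc1, Tnni1, Tnnt1 and Tnnt2. Tnnc1, the calcium-binding subunit of slow and cardiac muscle, was at 47.4, 34.8 and 25.7 CPM in muscle replicates 1, 2 and 3 and at 0.46, 3.14 and 2.29 CPM in epithelial replicates 1, 2 and 3. Tnni1, the inhibitory subunit of slow muscle, was at 52.7, 63.5 and 31.6 CPM in muscle and at 0.65, 5.68 and 2.18 CPM in epithelium. The log2 fold changes of Tnnc1 and Tnni1 were alike, 4.24 ± 0.65 and 4.18 ± 0.71 (SE; edgeR adjusted p = 0.00364 and 0.00608), and neither gene was lowest in muscle replicate 2.

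Tnnt2, the tropomyosin-binding subunit of cardiac muscle, was at 36.8, 29.9 and 45.7 CPM in muscle and at 0.07, 5.68 and 0.94 CPM in epithelium, a wide spread among the epithelial libraries. Its log2 fold change of 4.16 ± 1.11 (SE; edgeR adjusted p = 0.0454) was near the threshold and lost the call without muscle replicate 1, 2 or 3 or epithelial replicate 3 (edgeR adjusted p = 0.160, 0.0965, 0.168 and 0.221). The Tnnt2 call was lost in 12 of 18 alternatives in all, among them each of the 3 other scalings (0.0791 to 0.111) and both other filters on low counts (0.0551 and 0.121). Without epithelial replicate 2 the Tnnt2 log2 fold change was 6.36. Tnnt1, the tropomyosin-binding subunit of slow skeletal muscle, was at 40.8, 8.79 and 13.7 CPM in muscle and at 3.72, 2.07 and 0.83 CPM in epithelium, highest in muscle replicate 1. Its log2 fold change was 3.24 ± 0.73 (SE; edgeR adjusted p = 0.0219), and the call was lost without muscle replicate 1 and epithelial replicates 2 and 3 (edgeR adjusted p = 0.194, 0.0734 and 0.0770) and in limma-voom (adjusted p = 0.103). For Tnnt3, a fast-muscle subunit, muscle held 4.94 to 6.39 CPM and epithelium 0.04 to 2.01 CPM, with a log2 fold change of 2.38 ± 1.27 (SE; edgeR adjusted p = 0.349).

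Of the 9 sarcomeric heavy chains edgeR called 0 in either direction (against 6.58% and 4.11% of all tested genes), and 1 had an unadjusted p under 0.05. That gene was Myh7, the slow and cardiac heavy chain, at 16, 17.5 and 7.23 CPM in muscle and at 2.70, 3.94 and 6.50 CPM in epithelium, which gave a log2 fold change of 1.63 ± 0.53 (SE; edgeR adjusted p = 0.0956). DESeq2 did call Myh7, and edgeR with the receptor background described below as a covariate called Myh7 and Myh6. The perinatal heavy chain Myh8 lay between 1.11 and 8.82 CPM in muscle and between 0.33 and 6.35 CPM in epithelium. Of the 50-base words of Myh7, 22.2% also occur in Myh6, so their low counts could be mixed.

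The striated-type members differed in their order over the muscle libraries. Muscle replicate 1 was highest for Myl1, an essential chain of fast skeletal muscle (10.5, 1.6 and 1.31 CPM in muscle replicates 1, 2 and 3), and, named after their values were seen, for the fast troponin C gene Tnnc2 (13.9, 0.50 and 1.37 CPM) and the sarcomeric alpha-actinin Actn2 (31.8, 10.04 and 2.73 CPM). The skeletal regulators Myog (245, 1.20 and 17.3 CPM) and Myod1 (62.1, 0.50 and 3.82 CPM), also named after their values were seen, were highest in the same library. Over the 13 skeletal muscle markers the sum was 835, 244 and 452 CPM in muscle and 11.9, 228 and 117 CPM in epithelium, with 2 of the 13 (Acta1 and Casq1) called higher in muscle. The list had no common order over the muscle libraries: 5 of the 13 were highest in replicate 1 (Acta1, Chrna1, Myf5, Myod1 and Myog), 6 in replicate 2 (Ckm, Myf6, Neb, Pax7, Ryr1 and Ttn) and 2 in replicate 3 (Casq1 and Cav3). Muscle replicate 2 was instead highest for Myl7 (58.3 CPM) and for the atrial heavy chain Myh6, named after its values were seen (6.35, 31.1 and 3.24 CPM). In epithelium Myh6 was at 0.71, 8.42 and 7.02 CPM, which overlapped muscle (edgeR adjusted p = 0.595). Its highest levels were in muscle replicate 2 and epithelial replicates 2 and 3, the libraries with the most receptor counts, described below. The 8 cardiac markers summed to 738, 254 and 976 CPM in muscle and to between 16.6 and 63.9 CPM in epithelium, and of these Actc1 alone was called and made up most of the sum (722, 204 and 948 CPM in muscle). The other 7 summed to 15.9, 50.6 and 28.2 CPM in muscle replicates 1, 2 and 3 and to 15.7, 44.0 and 22.5 CPM in epithelial replicates 1, 2 and 3, highest in replicate 2 of each population. The part of skeletal or cardiac muscle cells in the levels of these members was not tested.

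**Figure D4:**
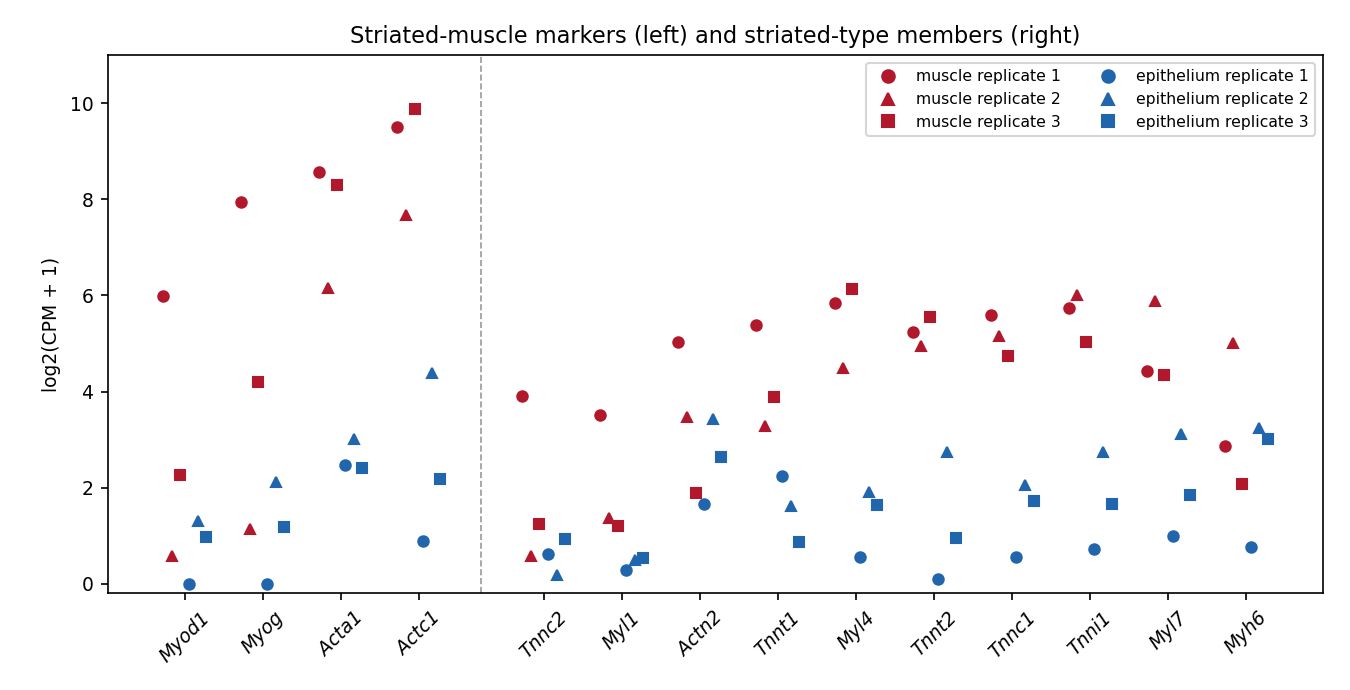
Levels of 4 striated-muscle marker genes, chosen after their values were seen (left of the dashed line), and of 10 members of the striated muscle apparatus (right), as log2(CPM + 1) in each library, with muscle in red, epithelium in blue and the replicate number as the marker shape. Muscle replicate 1 (circle) is highest for Myod1, Myog, Acta1, Tnnc2, Myl1, Actn2, Tnnt1 and Tnnc1. Muscle replicate 2 (triangle) is highest for Tnni1, Myl7 and Myh6, and muscle replicate 3 (square) for Actc1, Myl4 and Tnnt2. The 4 markers come from lists of 13 skeletal and 8 cardiac genes. Of these lists, 6 and 5 genes were highest in muscle replicate 2, and they are not drawn. Acta1 and Actc1 were high in muscle replicates 1 and 3, as was the smooth muscle marker sum, while Myod1 and Myog were high mainly in replicate 1.

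Of the 24 unconventional myosins, 2 (8.33%, against 6.58% of all tested genes) were higher in muscle, Myo1c and Myo18a, and 1 (4.17%, against 4.11%) was higher in epithelium, Myo5c. Both shares are near the background. Myo5c, a class V motor that carries secretory granules in glandular epithelia, lies on chromosome 9 (75232020 to 75305451, plus strand). It was at 0.23, 6.39 and 1.14 CPM in muscle replicates 1, 2 and 3 and at 128, 65.2 and 77.3 CPM in epithelial replicates 1, 2 and 3, with a log2 fold change of -5.17 ± 0.97 (SE; edgeR adjusted p = 0.00985). Every epithelial library was well above every muscle library, while the edgeR adjusted p was 0.0630 without muscle replicate 3, 0.0533 without epithelial replicate 1 and 0.102 with a covariate for receptor background. Its relative Myo5b, a motor of recycling endosomes, was lower in every muscle library (8.78, 5.04 and 0.46 CPM against 16.5, 15.0 and 11.3 CPM) and did not pass (log2 fold change -1.59 ± 0.82, SE; edgeR adjusted p = 0.335).

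Myo1c, a class I motor that links membranes to actin, was at 221, 117 and 223 CPM in muscle and at 55.4, 72.9 and 55.5 CPM in epithelium. The log2 fold change of Myo1c was 1.61 ± 0.31 (SE; edgeR adjusted p = 0.0103), or an edgeR adjusted p of 0.0559 without epithelial replicate 3. Myo18a, a class XVIII myosin, was at 78.8, 66.1 and 92.5 CPM in muscle and at 49.3, 35.6 and 31.7 CPM in epithelium, a log2 fold change of 1.03 ± 0.26 (SE; edgeR adjusted p = 0.0358). Its call was lost without muscle replicates 1 and 3 and epithelial replicates 2 and 3 (edgeR adjusted p = 0.0975, 0.140, 0.114 and 0.226) and within the later header date (0.0508). Per kilobase Myo1c held 45.2% ± 3.6 (SD, n = 3) of the class I counts in muscle and 22.0% ± 2.9 in epithelium. Myo1e, named after its values were seen, held 13.7% ± 2.5 and 36.0% ± 1.1, and its own log2 fold change of -0.80 ± 0.33 (SE; edgeR adjusted p = 0.190) did not pass. Myo6, the motor that moves towards the minus end of actin, and Myo10, the motor of filopodia, overlapped between groups, with log2 fold changes of -0.10 ± 0.26 and -0.43 ± 0.36 (SE; edgeR adjusted p = 0.932 and 0.686). That of Myo6 was 0.01 without muscle replicate 3.

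None of the 4 tropomodulins was called by edgeR without covariates or by DESeq2, and none had an unadjusted p under 0.05. Of all tested genes edgeR called 6.58% higher in muscle and 4.11% higher in epithelium, so 0 calls among 4 genes is near the background. With the receptor background described below as a covariate, edgeR called Tmod1 higher in muscle (adjusted p = 0.0281). Tmod3, the tropomodulin found in most tissues, held 88.7% ± 4.3 (SD, n = 3) of the family's counts per kilobase in muscle and 91.8% ± 1.7 in epithelium. It ranged from 128 to 176 CPM in muscle and from 158 to 198 CPM in epithelium, which gave a log2 fold change of -0.20 ± 0.23 (SE). Tmod2 gave -0.25 ± 0.29 and Tmod1 1.49 ± 1.02 (SE, log2), and 39.8% of the 50-base words of Tmod1 also occur in Tstd2.

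Many of the faint members were highest in the same libraries of both populations. Of the 32 tested members under 20 CPM in every library, 18 had their 3 highest levels in muscle replicate 2 and epithelial replicates 2 and 3. These 3 libraries also held the most counts of olfactory and vomeronasal receptor genes, a family best known from sensory neurons of the nose: 0.60, 1.24 and 0.43 CPM on average over 1449 receptor genes, against 0.0045 to 0.025 CPM in the other 3. The 18 include the sarcomeric heavy chains Myh1, Myh2, Myh4, Myh13, Myh15 and Myh7b and the microvillar and sensory motors Myo7b, Myo3a and Myo15, all named after their values were seen. Muscle replicate 2 and epithelial replicates 2 and 3 also had the smallest totals (11847432 to 25231394 counts, against 31380201 to 54848820). They held a count for 21811 to 22154 genes of the table, against 16979 to 18217 in the other 3. The share of all faint genes with this order was not computed, so the 18 of 32 are not shown to be particular to the members. The part of background counts, such as those of the receptor genes, in the faint members was not tested.

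The 20 muscle members differed in how far muscle replicate 2 departed from the other muscle libraries. It was the lowest muscle library for 15 of the 20, muscle replicate 3 for 3 and muscle replicate 1 for 2. The level of Myl9 in it was 0.273 times the mean of replicates 1 and 3, that of Tpm2 0.287 times, that of Tpm1 0.400 times and that of Cnn2 0.402 times. In the same library the smooth muscle marker sum was 4137 CPM against 16896 and 17829, and the fibroblast sum of 9712 CPM lay between those of the others. Tropomyosin Tpm4 (0.705), light chain Myl12a (0.886) and troponin C gene Tnnc1 (0.953) came closer to the other muscle libraries, and Pdlim2 (1.19), Tnni1 (1.51) and Myl7 (2.93) were above them. Without muscle replicate 2 the log2 fold changes of Myl9, Tpm2, Tpm1 and Cnn2 were 7.04, 6.99, 3.63 and 4.47.

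Actomyosin regulators that the symbol rule does not take in were read from a list of 50 genes, which was written with earlier results of these data known. Of these, 26 (52.0%, against 6.58% of all tested genes) were higher in muscle in edgeR and 2 (4.0%, against 4.11%, a share near the background) were higher in epithelium. The median log2 fold change was 1.17, against -0.10 over all tested genes. Among the 26, Tagln, Smtn, Lmod1, Synpo2, Des and Myocd are also in the smooth muscle marker sum above. Their calls are therefore not separate evidence from that sum. The 3 largest muscle differences were those of Mylk, the kinase that phosphorylates the regulatory light chain (6.80 ± 0.89, SE, log2; edgeR adjusted p = 0.00183, or 0.0588 with a covariate for receptor background), the actin-binding Tagln (6.15 ± 0.59; 0.000493) and the intermediate filament gene Des (6.13 ± 0.73; 0.00115). Mylk was at 1332, 311 and 1842 CPM in muscle replicates 1, 2 and 3 and at 3.48, 18.8 and 9.31 CPM in epithelium, and like Myl9, the gene of its substrate, it was lowest in muscle replicate 2. The 2 genes higher in epithelium were Ezr, which ties actin to the apical membrane (log2 fold change -4.47 ± 0.30, SE; edgeR adjusted p = 9.61e-05), and Rock1, a kinase that inhibits myosin phosphatase (-0.96 ± 0.25; 0.0389). Rock1 kept its call without muscle replicate 3 and lost it without each of the other 5 libraries (edgeR adjusted p from 0.0595 to 0.182).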

How the data were processed

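RNA sequencing libraries of sorted muscle (3) and epithelium (3) were used, grouped by their titles. The authors deposited whole-number counts per gene symbol, with no further scaling seen in the values, and 0 columns were left unused. Per the labels' protocols, cDNA came from the SMART-Seq v4 low-input kit and libraries from Nextera XT, which carry no molecular identifiers, so counts include PCR copies. Per the submitters' processing notes, the tools were Trim Galore, Bowtie2, Cufflinks and DESeq with the mm10 build. Their roles and the strand setting are not given in the sources used here. Of counts from 1 to 19, 73.8% to 79.6% were even, so low counts hold fewer independent fragments than they appear to. In all, 31 members overlap a gene on the other strand.

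Counts were tested in R 4.3.3 with edgeR 4.0.16 (filterByExpr, TMM, robust quasi-likelihood fit, two-sided, Benjamini-Hochberg over 19375 genes, threshold 0.05, no covariate), checked on simulated data. Standard errors were derived from the test statistic. Alternatives used DESeq2 1.42.0, limma 3.58.1, other scalings, filters and thresholds, the replicate number, the header date, the receptor background and leaving out each library. The pseudocount of the gene ratios was 0.5. Levels per kilobase used the longest principal transcript of GENCODE vM21 (GRCm38), where all 76 members were found. Coordinates come from it, and promoters from RefSeq (GRCm38.p6). The members and gene lists were chosen with earlier results of these data known. Named were all members past the threshold and a fixed list of family members, and for the regulators outside the rule up to 3 in each direction with the largest fold. Of the fixed list, 1 member is counted but not reported here by name.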

Additional observations from a re-analysis of the deposited data

How the results depend on the processing

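Of the 23 called members, 13 kept their call in all 18 alternatives: Actn1, Cnn2, Myh14, Myl4, Myl9, Pdlim1, Pdlim2, Pdlim3, Pdlim7, Tnnc1, Tnni1, Tpm1 and Tpm2. No called member changed sign. Members higher in epithelium numbered 5 with DESeq2, limma-voom, upper-quartile scaling, library size only, the later header date only and the header date as a term, and 2 to 5 with 1 library left out. Members higher in muscle numbered 13 at an adjusted p under 0.01, 11 to 21 with 1 library left out, 28 with the receptor background as a covariate, 26 with DESeq2 and 23 with the header date as a term. The median log2 fold change of the members tested was 0.76 with limma-voom, 0.80 with at least 10 counts in all 3 libraries of a group, 0.22 within the later header date, 0.89 with the receptor background as a covariate and 0.036 to 0.59 with 1 library left out. Actn4 turned to -0.043 with library size only, Myh9 ranged from -0.29 to 0.26 with 1 library left out (0.10 without muscle replicate 2 and 0.26 without epithelial replicate 1), and Myo6 from -0.28 to 0.010 (0.010 without muscle replicate 3). The log2 ratio difference of Myl9 to Myl12a was 6.49 within the later header date. Over the named genes and these alternatives, 724 single-gene values kept their direction and side of the threshold, 58 lost the call, 42 gained one and 4 changed sign. The causes were not tested. The identifier row of the file header was read as dates, 9/3 for the libraries numbered 2 and 9/16 for the other 4, and what it dates is not stated.

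Same-numbered libraries deviated together across genes for replicates 1 and 2 (r = 0.59 and 0.73) and not for replicate 3 (-0.57). For the 4123 better expressed genes (mean log2 CPM 6 or more) r was 0.17, 0.15 and -0.17. Deviations from the mean of 3 libraries are tied to each other, so these values cannot decide whether the libraries are paired. The labels name no pairs, and the numbers were not taken as pairs. With the replicate block 22 members were higher in muscle and 4 in epithelium, the median was 0.45 and Tnnt2 lost its call. For the 32 members under 20 CPM in every library, a missed threshold does not show equal levels.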
